A study of Mus musculus with 6 samples.

Results

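The subunits, inhibitors and feedback genes of NF-κB were followed in mouse regulatory T cells (Treg, which hold other immune cells in check) with and without the deacetylase HDAC6. The members were a list of 10 genes, and every probe set (a group of array probes for 1 transcript) annotated to a single one of them was taken, whatever its value. This gave 15 probe sets of 9 genes, out of 22626 probe sets and 12393 named genes. Nfkb1 was on the list, but no probe set was matched to it and it was not analysed here. The measured members were the subunit genes Nfkb2, Rel and Relb, the inhibitor genes Nfkbia, Nfkbib, Nfkbie and Nfkbiz, and the feedback genes Tnfaip3 and Birc3.

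The HDAC6 knockout group had 3 arrays and the wild-type group 3, each described in the series' design text as an independent sample of magnetically separated CD4+CD25+ cells. The wild-type mice were C57BL6. No strain, age, sex or type of Hdac6 deletion was given for the knockout mice in the sources used here, nor whether cells of several animals were pooled, and neither group was described as treated. Values are log2 expression from RMA (robust multi-array averaging), so a difference of 1 is a doubling, and each difference is knockout minus wild type. A difference was called when its adjusted p was under 0.05 over all probe sets (limma with Benjamini-Hochberg adjustment). The number of arrays limits the precision.

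NF-κB proteins work as dimers of Rel family subunits that inhibitor proteins of the IκB family hold in the cytoplasm. In the classical route a receptor activates the IKK kinase, the inhibitor is marked with ubiquitin and degraded, and dimers containing RelA or c-Rel enter the nucleus. In the alternative route the kinase NIK (Map3k14) leads to processing of p100, the product of Nfkb2, into p52, which pairs with RelB. The nuclear dimers switch on genes for their own inhibitors and subunits, which ends or prolongs the response. In Treg, c-Rel is known for its part in the first expression of Foxp3.

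RefSeq promoter windows (assembly GRCm38.p6, 250 bases before to 50 after a transcript start) were at hand for 7 of the 9 measured members. They were searched on both strands for the degenerate NF-κB consensus, a κB motif of 10 bases whose matches can overlap each other. The consensus was found in 5 of these 7 genes (Nfkb2, Rel, Nfkbia, Nfkbie and Tnfaip3) and in 5.14% of all 27025 genes with a window. A gene can have several windows, and by window it was 7 of the members' 10 and 4.51% of all 32851. Some windows of Nfkb2 overlap, so the same site was counted more than once. The windows of Nfkbib and Birc3 held no match. Stretches of these 5 genes are shown because a κB motif near the start is the feature through which NF-κB is known to act on its own regulators. The members were listed as such regulators, though not by their sequence, so their share with a match is not a test. Each stretch below is the 130 bases before the start (the most upstream of the starts in the table for Nfkb2 and Tnfaip3), 5′ to 3′ on the gene's strand, with consensus matches on either strand in capitals. It covers chr19:46304607-46304736 (plus strand) for Nfkb2, chr11:23770970-23771099 (minus) for Rel, chr12:55492648-55492777 (minus) for Nfkbia, chr17:45555570-45555699 (plus) for Nfkbie and chr10:19015411-19015540 (minus) for Tnfaip3.
Nfkb2: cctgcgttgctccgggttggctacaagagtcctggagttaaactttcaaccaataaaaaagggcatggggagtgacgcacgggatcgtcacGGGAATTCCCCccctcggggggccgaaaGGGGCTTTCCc
Rel: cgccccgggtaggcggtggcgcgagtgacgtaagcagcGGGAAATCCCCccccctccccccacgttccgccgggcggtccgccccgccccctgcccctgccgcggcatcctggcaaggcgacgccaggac
Nfkbia: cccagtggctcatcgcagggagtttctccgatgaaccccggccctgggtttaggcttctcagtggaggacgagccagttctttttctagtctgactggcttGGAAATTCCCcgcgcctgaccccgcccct
Nfkbie: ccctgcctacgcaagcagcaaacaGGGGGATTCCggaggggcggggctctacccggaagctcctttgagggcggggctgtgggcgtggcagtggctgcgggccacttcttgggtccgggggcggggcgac
Tnfaip3: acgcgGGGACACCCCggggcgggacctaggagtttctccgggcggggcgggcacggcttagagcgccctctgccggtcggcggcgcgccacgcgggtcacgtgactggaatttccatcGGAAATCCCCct
Counted from the transcript start, the match of Nfkbia lay at positions -29 to -20 and that of Nfkbie at -106 to -97. Tnfaip3 had matches at -125 to -116 and at -12 to -3. Nfkb2 and Rel each carried overlapping matches on both strands, at -39 to -29 and at -92 to -82, and Nfkb2 a further one at -11 to -2. A match in a window is a description of the letters and not evidence of binding.

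The medians of the 6 arrays lay between 6.22 and 6.27 and their lower quartiles between 4.14 and 4.25. Hdac6 read 7.54, 7.86 and 7.64 on the knockout arrays, against 8.54, 8.23 and 8.42 on the wild-type arrays, a difference of -0.71 (SE 0.11) without overlap that was not called (limma adjusted p = 0.0875). Which part of Hdac6 was deleted is unknown here, as is whether this probe set lies within it, so its reading is a limited check of the genotype labels. Over all probe sets 44 of 22626 were called (0.194%), and 5, 11 and 20 without knockout replicate 2, wild type replicate 2 and knockout replicate 1. Foxp3, which defines Treg, read between 10.18 and 10.40 on all 6 arrays, above their upper quartiles of 8.35 to 8.40. Since nothing in the sources used here ties an array to a separate animal, p-values measure only the spread between these samples.

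None of the 15 member probe sets was called by limma (0 of 15, against 0.194% of all probe sets). The differences were small, from -0.16 for Tnfaip3 to 0.35 for Relb, with a median of 0.12, while the median over all probe sets was -0.0012. The members' median was 0.08 without knockout replicate 3. Of the 15, 13 were higher in the knockout, where 49.6% of all probe sets were. Without wild type replicate 1, the array that was lowest of the 6 for 7 of the member probe sets, 9 of 15 were higher. At an unadjusted p under 0.05 stood 2 of the 15 (13.3%), Relb and 1 probe set of Nfkb2, beside 10.6% of all probe sets, so that share was close to the background. That count was 0 without wild type replicate 2, 1 without wild type replicate 1, knockout replicate 2 or knockout replicate 3, and 4 without knockout replicate 1. Knockout arrays lay wholly above wild type for 5 of the 15 (33.3%), against 7.68% of all probe sets, and wholly below for 1, against 9.48%, which makes 6 without overlap (40%), against 17.2%. The 5 became 3 after median centring (7.48% of all probe sets) and 8 without wild type replicate 3 (13.9% of all probe sets). Probe sets of 1 gene measure the same transcripts, so the 15 are not independent of each other. The member genes were also chosen with earlier results of these data known. Their shares beside those of all probe sets are therefore a description and not a test.

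**Figure D1:**
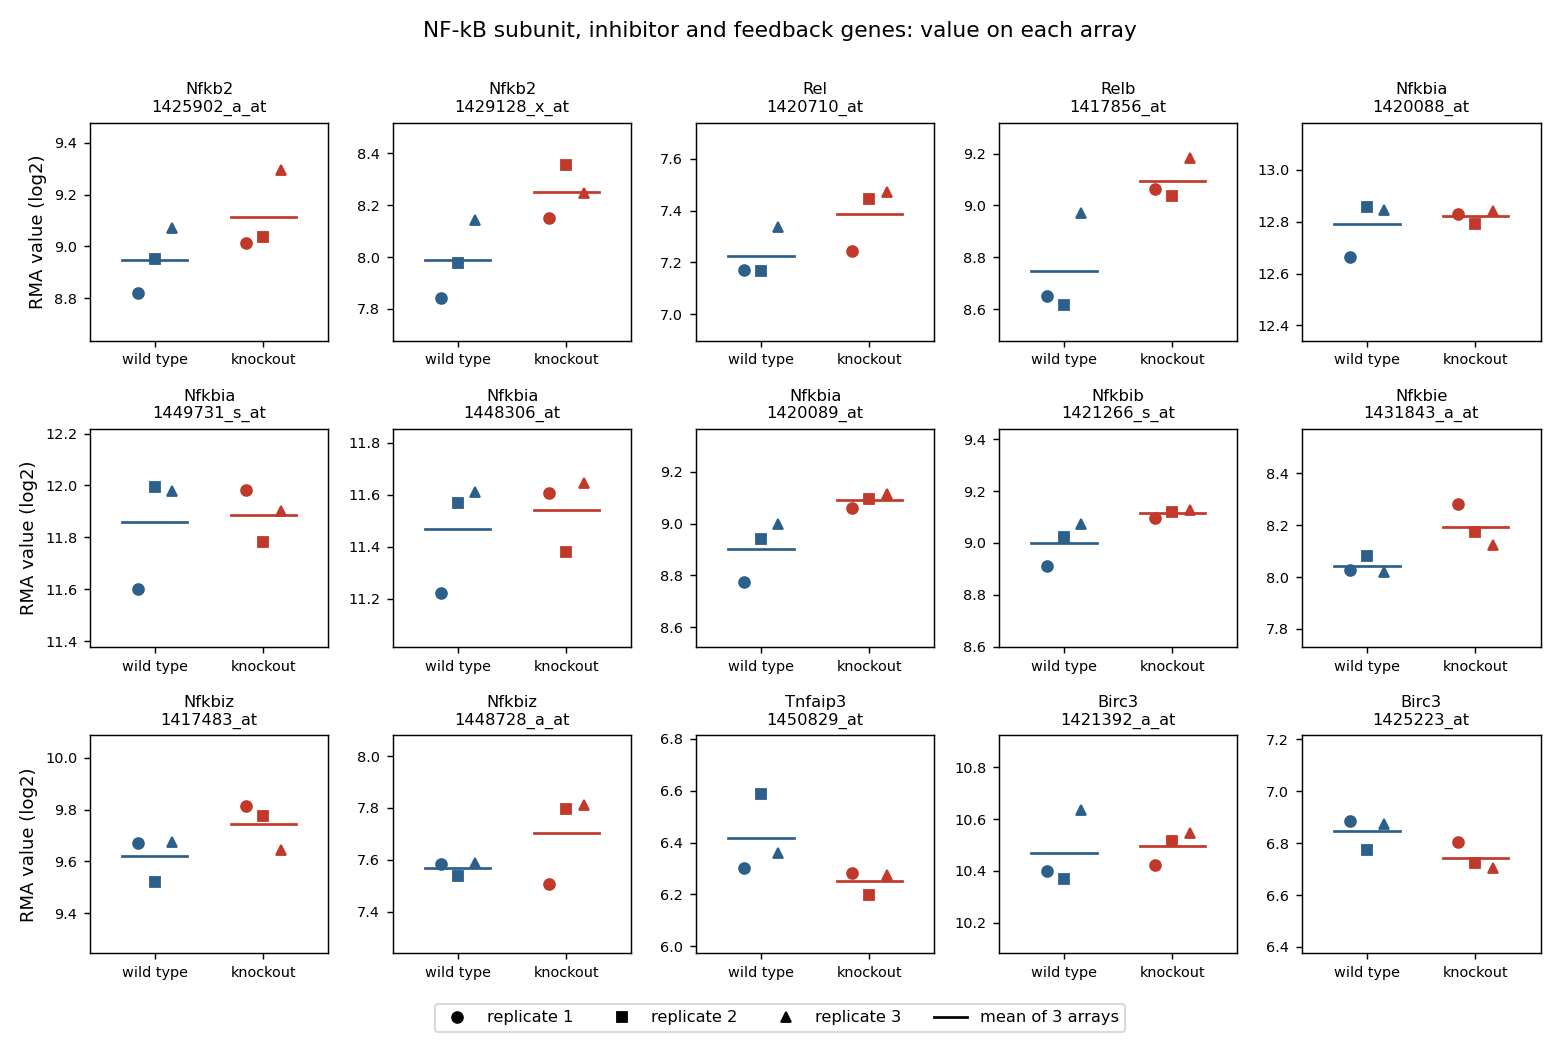
Log2 RMA value (vertical axes, each spanning the same range of log2 units) of the 15 member probe sets on the 3 wild-type (blue) and 3 knockout (red) arrays; symbols mark the replicate number and lines the mean of 3 arrays. The groups are apart for Relb, Nfkbib, Nfkbie, Tnfaip3 and 1 probe set each of Nfkb2 and Nfkbia, and wild type replicate 1 (circle) is the lowest array for every Nfkbia probe set.

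Relb, which encodes the RelB subunit of the alternative route, showed the largest difference among the members. It read 9.06, 9.04 and 9.18 on the knockout arrays, against 8.65, 8.62 and 8.97 on the wild-type arrays. All knockout arrays lay above all wild-type arrays, with wild type replicate 3 closest to them. The difference was 0.35 (SE 0.11, 95% interval 0.09 to 0.60), or 1.27-fold, and was not called (limma adjusted p = 0.324). Leaving out 1 array moved it between 0.28 (without wild type replicate 2) and 0.46 (without wild type replicate 3).

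Nfkb2, whose product p100 acts as an inhibitor until it is processed to p52, had 2 probe sets. The brighter one read 9.01, 9.04 and 9.29 on the knockout arrays, against 8.82, 8.95 and 9.07 on the wild-type arrays, and the genotypes overlapped through wild type replicate 3. The other read 8.15, 8.36 and 8.25 against 7.84, 7.98 and 8.14, with the knockout arrays above wild type by a very small margin. That margin did not survive centring each array on its median or quantile normalization, although the direction did. The differences were 0.17 (SE 0.11) and 0.26 (SE 0.10, 95% interval 0.03 to 0.50), with limma adjusted p-values of 0.635 and 0.411. The dimmer probe set carries the suffix by which the maker marks probes that may also bind related sequences, so it is the less certain of the pair. Without knockout replicate 3, the array highest for the brighter probe set, that probe set differed by 0.08, and by 0.10 without wild type replicate 1.

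Rel, the gene of c-Rel, read 7.25, 7.45 and 7.47 on the knockout arrays, against 7.17, 7.17 and 7.34 on the wild-type arrays. Knockout replicate 1 fell below wild type replicate 3, so the groups overlapped. The difference of 0.16 (SE 0.09, 95% interval -0.05 to 0.38) was not called (limma adjusted p = 0.593). The 4 probe sets of the 3 measured subunit genes were thus all higher in the knockout on average, by 1.12-fold to 1.27-fold, and none was called.

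Nfkbia encodes IκBα, the classical inhibitor that NF-κB itself induces, and its 4 probe sets did not give 1 picture. The brightest read 12.83, 12.79 and 12.84 on the knockout arrays, against 12.67, 12.86 and 12.84 on the wild-type arrays. Another read 11.98, 11.78 and 11.90 against 11.60, 11.995 and 11.98, and a further one 11.61, 11.38 and 11.64 against 11.22, 11.57 and 11.61. For these 3 the genotypes overlapped, and wild type replicate 1 was the lowest of the 6 arrays. Their differences were 0.03 (SE 0.08), 0.03 (SE 0.12) and 0.08 (SE 0.13), and without wild type replicate 1 each was below 0, at -0.03, -0.10 and -0.05. The dimmest probe set read 9.06, 9.09 and 9.11 on the knockout arrays, against 8.77, 8.94 and 8.997 on the wild-type arrays, without overlap. It differed by 0.19 (SE 0.08, limma adjusted p = 0.470), and by 0.12 without wild type replicate 1. For the brightest, the 95% interval ran from -0.15 to 0.21, that is from 0.902-fold to 1.16-fold.

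Nfkbib and Nfkbie encode the other classical inhibitors, IκBβ and IκBε. Nfkbib read 9.10, 9.12 and 9.13 on the knockout arrays, against 8.91, 9.02 and 9.07 on the wild-type arrays. Nfkbie read 8.28, 8.17 and 8.12 on the knockout arrays, against 8.03, 8.08 and 8.02 on the wild-type arrays. For both genes the knockout arrays lay above every wild-type array, though for Nfkbib not after median centring. The differences were 0.11 (SE 0.07, 95% interval -0.05 to 0.28) for Nfkbib and 0.15 (SE 0.07, 95% interval -0.02 to 0.32) for Nfkbie. Neither was called, at limma adjusted p-values of 0.629 and 0.521, and Nfkbib differed by 0.07 without wild type replicate 1.

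Nfkbiz encodes IκBζ, an atypical member of the family that works in the nucleus, where it adjusts the response of some target genes. Its brighter probe set read 9.81, 9.78 and 9.64 on the knockout arrays, against 9.67, 9.52 and 9.67 on the wild-type arrays. The dimmer read 7.51, 7.80 and 7.81 against 7.58, 7.54 and 7.59. Both overlapped, through knockout replicate 3 in the first case and knockout replicate 1 in the second. They differed by 0.12 (SE 0.08) and 0.14 (SE 0.10), with limma adjusted p-values of 0.648 and 0.672. The first was 0.07 without wild type replicate 2. The second was 0.08 and 0.09 without knockout replicates 3 and 2, and 0.23 without knockout replicate 1, when the genotypes no longer overlapped.

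Tnfaip3 encodes A20, a ubiquitin-editing enzyme that switches NF-κB signalling off, and it was the 1 measured gene whose knockout arrays lay below every wild-type array. It read 6.28, 6.197 and 6.27 on the knockout arrays, against 6.30, 6.59 and 6.36 on the wild-type arrays. The gap between knockout replicate 1 and wild type replicate 1 was small, and wild type replicate 2 stood well above the rest. The difference was -0.16 (SE 0.09, 95% interval -0.38 to 0.05; limma adjusted p = 0.590), and it was -0.08 without wild type replicate 2. All 6 values lay close to the arrays' medians, and no detection calls were used here.

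Birc3 encodes cIAP2, a ubiquitin ligase of TNF receptor complexes, and its 2 probe sets differed in direction. The brighter read 10.42, 10.52 and 10.55 on the knockout arrays, against 10.40, 10.37 and 10.64 on the wild-type arrays. The dimmer read 6.80, 6.72 and 6.71 against 6.89, 6.77 and 6.88. In both the genotypes overlapped, and the differences were 0.03 (SE 0.09) and -0.10 (SE 0.07), with limma adjusted p-values of 0.949 and 0.663. The first turned to -0.0073 without wild type replicate 1 and to -0.02 without wild type replicate 2. The 5 genes with a consensus match in the promoter window went both ways, with Nfkb2, Rel and Nfkbie higher and Tnfaip3 lower. Nfkbia was near 0 except for its dimmest probe set, at 0.19. Of the genes whose windows held no match, Nfkbib differed by 0.11 and the brighter Birc3 probe set by 0.03.

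**Figure D2:**
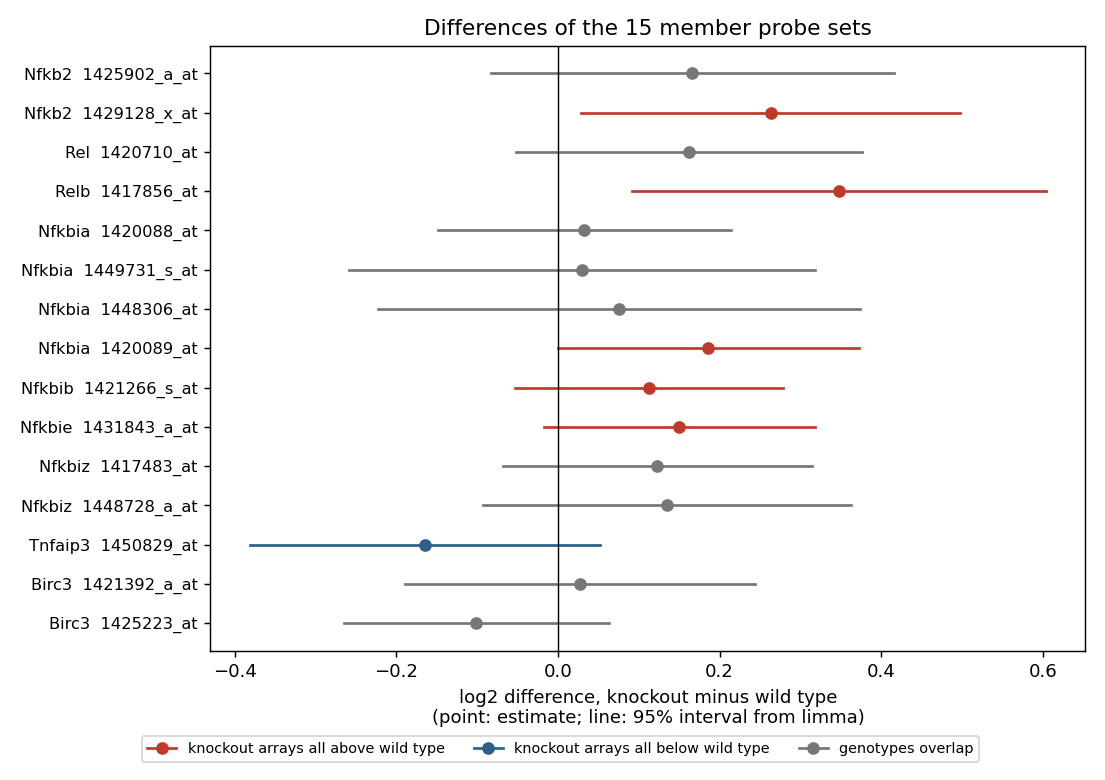
Log2 difference, knockout minus wild type, of each member probe set (points) with its 95% interval from limma (lines). Relb at 0.35 and 1 Nfkb2 probe set at 0.26 have intervals above 0, Tnfaip3 at -0.16 is the lowest, and none of the 15 was called after adjustment over all probe sets.

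Within a genotype the members moved by about as much as the genotypes differed. The median SD over member probe sets was 0.08 in the knockout and 0.12 in wild type (n = 3), beside a median difference of 0.12. Averaged over the 9 genes, each centred on its wild-type mean, the members stood at 0.09, 0.10 and 0.14 in the knockout arrays and at -0.08, -0.0026 and 0.08 in the wild-type arrays. The groups were therefore separated by little: knockout replicate 1 was just above wild type replicate 3. Among the wild-type arrays, replicate 3 was the highest for 10 of the 15 probe sets and replicate 1 the lowest for 8. Among the knockout arrays, replicate 3 was the highest for 9.

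Markers of other cells that a magnetic separation can carry over were read on the same arrays. Of 7 plasma cell markers all 7 were higher in the knockout (median 0.58), and their mean level ran from 8.57 to 9.16 in the knockout and from 8.04 to 8.39 in wild type. Knockout replicate 3, where the members were highest, was also the highest for these, and wild type replicate 1 the lowest for both. On average, both the members and these markers stood higher on every knockout array than on every wild-type array. Only within each genotype were the remaining arrays ordered otherwise. Relative to the wild-type mean, plasma cell markers stood at 0.54 and 0.30 on knockout replicates 1 and 2, and the members at 0.09 and 0.10. On wild type replicates 2 and 3 plasma cell markers stood close together, at 0.12 and 0.10, and the members at -0.0026 and 0.08. Of 9 markers of B cells, 5 were higher and 4 lower (median 0.04). Their mean levels ran from 6.64 to 7.11 in the knockout and from 7.05 to 7.25 in wild type. The 5 higher ones differed by between 0.04 (Blnk) and 0.29 (Fcer2a, SE 0.20). Ms4a1, the gene of CD20, and Spib, a transcription factor of B cells, both chosen after their values were seen, were lower without overlap, by 1.13 (SE 0.29) and 0.94 (SE 0.24). Of 10 myeloid and dendritic cell markers 4 were higher and 6 lower, with mean levels from 6.204 to 6.58 in the knockout and from 6.21 to 6.70 in wild type. Of 5 CD8 and natural killer cell markers 2 were higher and 3 lower, from 6.89 to 7.20 against 6.999 to 7.22. Of 4 erythroid and platelet markers 2 were higher and 2 lower, from 3.58 to 3.82 against 3.73 to 3.79. Of the 8 Treg markers 6 were higher and 2 lower (median 0.07). These 8 averaged 10.21 to 10.28 in the knockout and 10.12 to 10.22 in wild type. Of these 43 markers limma called 0 over all genes, and 10 (23.3%) had an unadjusted p under 0.05, against 11.2% of all genes; 5 of the 10 were plasma cell markers. RMA values have no 0, and the part of these cells in the members' differences was not tested. In such bulk samples, fewer cells of a type and less RNA per cell cannot be told apart.

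**Figure D3:**
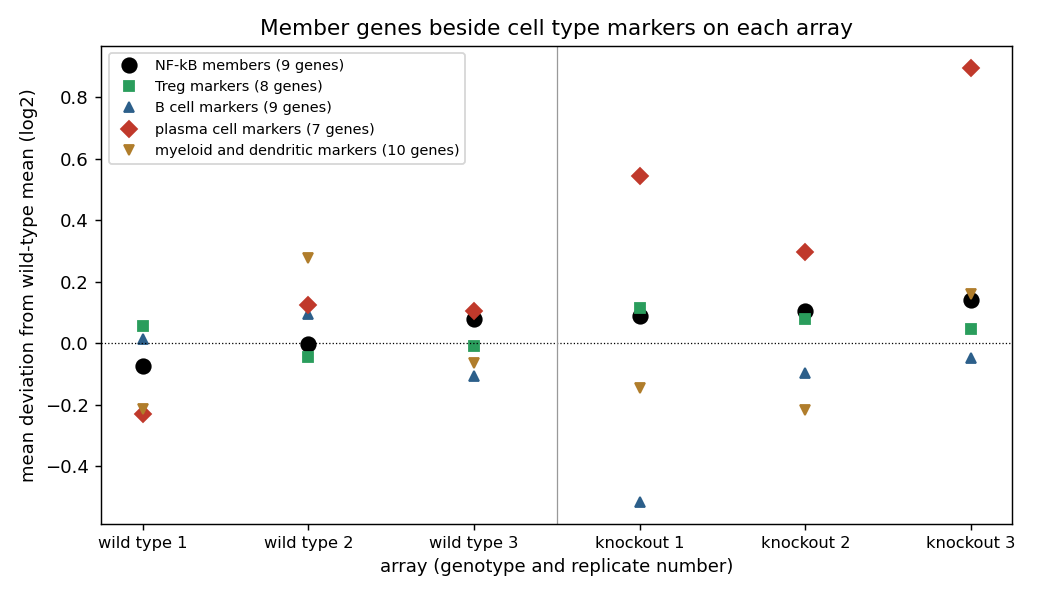
Mean deviation from the wild-type mean (log2) on each of the 6 arrays for the 9 member genes (black) and for 4 lists of cell type markers (colours). The members range from -0.08 to 0.14, and plasma cell markers are higher on every knockout array than on every wild-type array, most so on knockout replicate 3.

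The rest of the pathway was described from 5 lists, with each gene taken from its probe set of highest mean and p-values adjusted over all 12393 genes. Of the 95 genes measured, 50 were higher (where 50.7% of all genes were) and 45 lower, with a median of 0.0030 beside 0.0019 over all genes. By limma 0 of 95 were called, against 0.161% of all genes, and 13 (13.7%) had an unadjusted p under 0.05, against 11.2%. The members' median was 0.12, and the difference between members and lists was not tested. The lists, like the members, were chosen with earlier results of these data known. Their shares beside those of all genes, here and below, are a description and not a test.

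Of 8 other Rel and IκB family genes 4 were higher and 4 lower (median -0.01). Bcl3, a nuclear IκB that pairs with p50 and p52, had the largest difference of these. It read 8.41, 8.52 and 8.49 on the knockout arrays, against 7.89, 8.03 and 8.22 on the wild-type arrays, without overlap, a difference of 0.43 (SE 0.10, limma adjusted p = 0.161). Nkiras2 and Nkiras1, small GTPases that bind IκB proteins, differed by -0.19 and -0.14, and Nfkbil1, an IκB-like gene, by 0.10. The knockout arrays lay wholly below wild type for Nkiras2 and, by a very small margin, for Nkiras1. Nkiras2 was at -0.11 without knockout replicate 3 and Nkiras1 at -0.05 without wild type replicate 3, and Nfkbil1 was at 0.06 and 0.15 without wild type replicates 1 and 3. Rela, the gene of the classical subunit RelA, was singled out after its values were seen. It differed by -0.03 (SE 0.07, 95% interval -0.20 to 0.14), so its direction was unlike that of Relb, Rel and Nfkb2 but its interval covered 0.

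Of 20 IKK subunits and signalling adaptors 10 were higher and 10 lower (median -0.0087). Traf1, an adaptor of TNF receptors, read 9.53, 9.63 and 9.48 on the knockout arrays, against 9.30, 9.38 and 9.35 on the wild-type arrays. Its difference was 0.20 (SE 0.07, limma adjusted p = 0.350), without overlap. Other TNF receptor adaptors were Traf5 at 0.13 and Traf2 at 0.13, and Tab1, a partner of the kinase TAK1, was at -0.19. None of these 3 separated the genotypes. Traf5 was at 0.05 without knockout replicate 2, and Traf2 at 0.05 without knockout replicate 3 and 0.21 without knockout replicate 2.

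Of 15 ubiquitin-editing and other negative regulators 8 were higher and 7 lower (median 0.0026). Usp18, an interferon-induced protease, had the largest difference of the 5 lists, at 0.80 (SE 0.22, limma adjusted p = 0.226), with knockout replicate 1 highest at 9.08. Otud7b, the deubiquitinase Cezanne, differed by 0.31 (SE 0.09) and Tnip2, a partner of A20, by 0.24 (SE 0.10). N4bp1, an inhibitor of NF-κB signalling, differed by 0.19 (SE 0.09). Knockout arrays were wholly above wild type for Usp18, Otud7b, N4bp1 and Tnip1, another A20 partner at 0.20 that was chosen after its values were seen. That is 4 of 15 genes, against 8.28% of all genes. N4bp1 differed by 0.11 without knockout replicate 3, and Tnip1 by 0.10 without wild type replicate 2. Of 9 linear ubiquitin and β-TrCP ligase genes, which act on IκB proteins and on receptor complexes, 5 were higher and 4 lower (median 0.0047). The ubiquitin-conjugating enzyme gene Ube2n was at 0.12, the ligase subunit genes Fbxw11 and Btrc at 0.07 and 0.09, and Sharpin, of the linear ubiquitin complex, at -0.06. Fbxw11 was at 0.05 and 0.11 without knockout replicates 1 and 3, and Sharpin at -0.03 without wild type replicate 3. Btrc was at -0.02 and 0.21 without knockout replicates 2 and 1, and at 0.02 and 0.17 without wild type replicates 3 and 1.

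Of 43 NF-κB target genes of lymphocytes 23 were higher and 20 lower (median 0.01), from -0.52 to 0.53. At an unadjusted p under 0.05 stood 7 higher and 2 lower genes, 9 of 43, where 11.2% of all genes were past it. For 8 of the 43 the knockout arrays lay wholly above wild type, against 8.28% of all genes. For 4 of the 43 they lay wholly below, where 9.48% of all probe sets did. Tnfrsf1b, the TNF receptor TNFR2 that is abundant on Treg, read 10.38, 10.24 and 10.34 on the knockout arrays, against 9.96, 9.71 and 9.87 on the wild-type arrays, a difference of 0.47 (SE 0.09, limma adjusted p = 0.113) without overlap. The surface protein gene Cd83 differed by 0.29 (SE 0.08), the gene of the costimulatory receptor OX40, Tnfrsf4, by 0.27 (SE 0.09) and the peptide transporter gene Tap1 by 0.23 (SE 0.08), each without overlap. The 2 lower genes, named after their values were seen, were the lymph node homing receptor gene Ccr7 at -0.23 (SE 0.09; -0.15 without knockout replicate 3) and the survival gene Bcl2l1 at -0.18 (SE 0.08). Both were also without overlap. None of the 43 was called, and Tnfrsf1b was the 1 gene of the 5 lists that was called under an alternative, with trend and robust settings (limma adjusted p = 0.0310, where its other alternatives ranged from 0.0730 to 0.291).

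**Figure D4:**
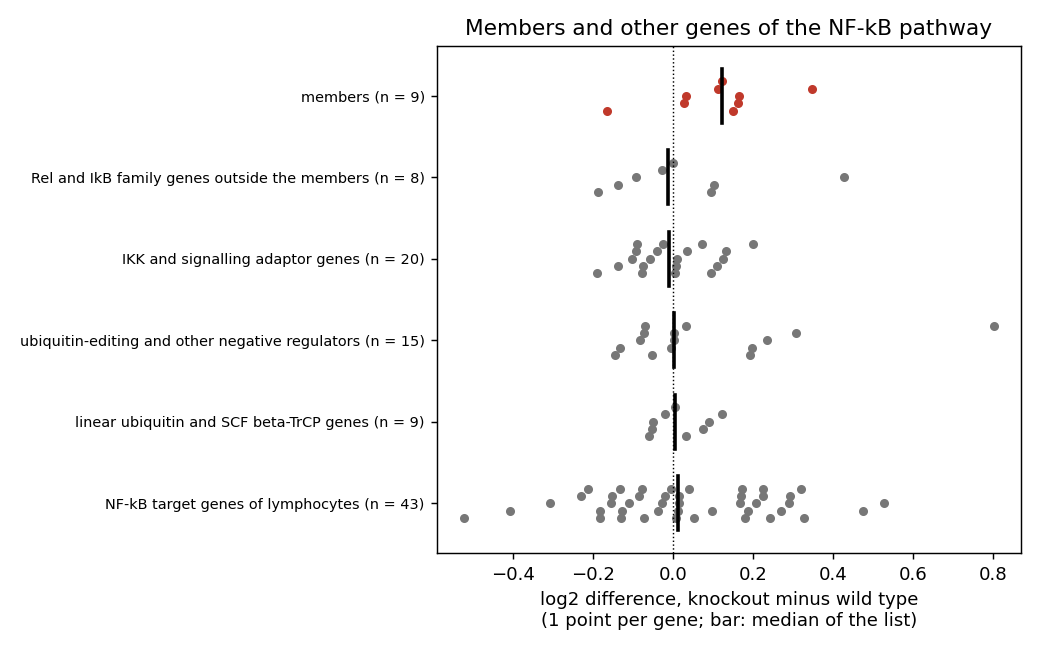
Log2 difference, knockout minus wild type, of the 9 member genes (red) and of the genes of 5 lists around the NF-κB pathway (grey), 1 point per gene from its probe set of highest mean, with the median of each list as a bar. The members' median is 0.12 and the medians of the 5 lists lie between -0.01 and 0.01; Usp18 at 0.80 and Bcl3 at 0.43 are the points farthest to the right in their lists.

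Relb was the member with the smallest p, and its pattern over the 6 arrays was compared with that of every other gene after each was centred on its own mean. Likeness was measured as the root mean square distance on the log2 scale, which was 0.23 for the median gene. The nearest genes were Icosl, the ligand of the receptor ICOS (0.027), Crlf2, a cytokine receptor chain (0.032), Notch1 (0.041), Nnat (0.053) and Bmyc (0.056). They share with Relb a wild type replicate 3 above the other wild-type arrays. Icosl read 7.82, 7.87 and 7.97 on the knockout arrays, against 7.41, 7.41 and 7.76 on the wild-type arrays. Nnat lay below the arrays' lower quartiles, so its pattern is that of a dim probe set. Among the members, Nfkb2 (0.12) and Rel (0.13) were nearest to Relb and Tnfaip3 (0.31) the farthest.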

How the data were processed

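Per the labels' protocols, column-purified total RNA was amplified and labelled with biotin for 1-colour arrays. The authors deposited log2 values made by RMA, per the submitters' processing notes, with the base taken from the range. RMA understates differences at both ends of its scale. All but the 64 control probe sets entered the fit, and no further normalization was applied. Symbols came from the platform annotation, updated by gene ID through RefSeq (GRCm38.p6, 20351 probe sets matched): 20380 probe sets carried 1 symbol, 691 several and 1555 none, and only the first kind was named.

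All 22626 probe sets were fitted in R 4.3.3 with limma 3.58.1 (its lmFit and eBayes functions, genotype as the only term, two-sided, Benjamini-Hochberg, threshold 0.05). The fit was tested on simulated data with changes larger than that of any member, so that test does not cover differences as small as theirs. Named genes were all members, Hdac6, the 4 genes of smallest p in each pathway list and the 5 genes most like the member of smallest p; Foxp3 was added as the Treg marker, and others are said to be chosen after their values were seen. Members and lists were chosen with earlier results of these data known. Alternatives were quantile normalization, median centring, trend and robust settings, no moderation, 2 filters on dim probe sets, a replicate block, array weights, leaving out each array, 1 probe set or the mean of probe sets per gene, and a threshold of 0.1. Figures were drawn with matplotlib 3.10.9.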

Additional observations from a re-analysis of the deposited data

How the results depend on the processing

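None of the 15 member probe sets was called under any of the 14 alternatives run on all of them, with 1 probe set per gene, or at a threshold of 0.1; the lowest limma adjusted p was 0.141, for Relb without wild type replicate 3. Of 210 recomputed member differences 203 kept their direction. The others were Nfkbia and Birc3 probe sets near 0: with array weights 1 of Nfkbia turned to -0.022, and leaving out 1 array 3 Nfkbia probe sets ranged from -0.030 to 0.067, from -0.047 to 0.16 and from -0.099 to 0.099, and the brighter of Birc3 from -0.022 to 0.11. Among list genes Btrc ranged from -0.017 to 0.21 and Rela from -0.050 to 0.016. The median over member probe sets stayed between 0.08 and 0.15. Members at an unadjusted p under 0.05 numbered 4 with quantile normalization or when only probe sets averaging 6 or more were tested, and from 0 (without wild type replicate 2) to 4 (without knockout replicate 1) leaving out 1 array. Members without overlap numbered 4 after median centring and 6 to 9 leaving out 1 array. Over all probe sets 147 were called with trend and robust settings, 86 with array weights, 27 with the replicate block, 0 without moderation (9.9% of them at an unadjusted p under 0.05) and 5 (without knockout replicate 2) to 51 leaving out 1 array; the cause was not tested. With trend and robust settings 1 pathway list gene was called, Tnfrsf1b, and Hdac6 as well. Same-numbered arrays did not all deviate together (correlations across probe sets of 0.22, -0.09 and 0.10), so the numbers were not taken as pairs. That check pools all probe sets and cannot decide it for the members, whose mean rose with replicate number in both genotypes. The replicate block changed no call among members or lists. With it the unadjusted limma p went from 0.0146 to 0.00634 for Relb and from 0.0717 to 0.0955 for Nfkbie. The median standard error over member probe sets was 0.09, which limits what 3 arrays per genotype can show.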
